A study of Homo sapiens with 4 samples.

Results

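Acute phase proteins are plasma proteins whose output from the liver goes up in inflammation, and the genes described here are those of 7 of them, of both chains of the IL6 receptor, and of SOCS3, which damps the signal of that receptor. The members are HP, SAA1, SAA2, SAA4, ORM1, ORM2, LBP, IL6R, IL6ST and SOCS3, picked by gene symbol and not by their values, and they make up 10 of the 24462 genes in the deposited tables. IL6 binds IL6R on hepatocytes, and the pair then joins IL6ST (gp130), the chain that carries the signal for the whole IL6 cytokine family through JAK kinases and STAT3. STAT3, acting with C/EBP factors and with NF-kappaB downstream of IL1, raises the transcription of the acute phase genes. SOCS3 is itself a STAT3 target, binds to IL6ST and JAK kinases, and closes the loop.

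HepG2, an established human liver cancer cell line, was sequenced as 4 libraries, 1 for each condition. Cells were treated with DMSO, the solvent, or with PD0332991 (palbociclib), a kinase inhibitor of CDK4 and CDK6, or they were transfected with scrambled siRNA or with siRNAs against both CDK4 and CDK6 (CDK4/6 KD). All were grown in RPMI with fetal bovine serum, and neither the labels nor the methods name IL6 or another cytokine as an additive. The dose, the exposure time and the interval from transfection to harvest for these libraries are not stated in the sources used here.

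The library totals ran from 8983848 to 11176880 reads, and 12780 to 13257 genes had at least 10 reads. CDK4 stood at 301 CPM (reads scaled to library size and composition with TMM factors) in DMSO, 257 in PD0332991, 354 in scrambled siRNA and 71.9 in CDK4/6 KD. CDK6 stood at 515, 479, 536 and 129 CPM in the same order, so both targeted transcripts were lowest in the library labelled as the knockdown. All 8 hepatocyte markers were counted, with a summed level between 15050 and 18964 CPM. Of the 8 macrophage markers, MARCO had 0 reads, and PTPRC, CD163 and CSF1R had at most 3 in any library. The summed macrophage level ran from 512 to 1037 CPM, nearly all of it LYZ, the lysozyme gene, at 501 to 1022 CPM, while CD14 was lowest in scrambled siRNA at 0.374 CPM. Endothelial markers summed to between 1.15 and 7.85 CPM with CDH5 and KDR at 0 reads, stellate cell and fibroblast markers to between 129 and 253 CPM, and keratinocyte markers to between 55.8 and 134 CPM. The macrophage sum and the endothelial sum, 7.29 CPM of it LYVE1, were highest in scrambled siRNA. The stellate and keratinocyte sums were lowest there and highest in PD0332991, where KRT14 had 249 reads against 9 in DMSO, KRT6A 150 against 9 and KRT5 113 against 2. The part of these markers in the results below was not tested. In a bulk sample, fewer cells making a transcript and less of it per cell cannot be told apart.

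The libraries were made with a QuantSeq kit, which primes at the poly(A) tail and yields reads near the 3′ end of a transcript, so sequence shared by related genes at that end bears on their counts. Members with near copies are therefore shown first, as the final 90 coding bases up to the stop codon in GENCODE 29 on GRCh38, with the bases that differ between the compared genes in capitals. ORM1 and ORM2, neighbours on chromosome 9 that encode both forms of orosomucoid, differed at 2 of these bases.
ORM1: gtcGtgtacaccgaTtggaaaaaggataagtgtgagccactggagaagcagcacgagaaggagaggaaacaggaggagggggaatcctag
ORM2: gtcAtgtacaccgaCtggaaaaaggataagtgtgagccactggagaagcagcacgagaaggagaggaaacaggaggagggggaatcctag
HP encodes haptoglobin, which binds free haemoglobin, and HPR the haptoglobin-related protein beside it on chromosome 16. They differed at 1 base.
HP: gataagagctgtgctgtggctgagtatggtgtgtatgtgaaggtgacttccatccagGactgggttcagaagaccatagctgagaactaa
HPR: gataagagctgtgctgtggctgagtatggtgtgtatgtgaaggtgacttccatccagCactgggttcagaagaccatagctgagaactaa
SAA1 and SAA2, the inducible serum amyloid A genes on chromosome 11, differed at 3 bases, while SAA4, the constitutive member of that family, differed from SAA1 at 21.
SAA1: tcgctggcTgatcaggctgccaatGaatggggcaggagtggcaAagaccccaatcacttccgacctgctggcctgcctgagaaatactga
SAA2: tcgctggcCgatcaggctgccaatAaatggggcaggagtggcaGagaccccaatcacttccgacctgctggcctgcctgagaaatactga
SAA4: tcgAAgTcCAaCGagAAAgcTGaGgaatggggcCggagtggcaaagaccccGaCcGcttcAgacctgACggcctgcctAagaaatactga
Within the last 300 bases of the transcript, 119 of 226 windows of 75 bases (52.7%) were identical between ORM1 and ORM2, and 122 of the 226 windows of HP (54.0%) were also found in HPR. For SAA4, 152 windows (67.3%) were shared with SAA2-SAA4, a readthrough gene that ends in the exons of SAA4. No window of SAA1, SAA2, LBP, IL6R, IL6ST or SOCS3 was found in another gene.

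The deposited reads of these pairs ran closely together in all libraries. ORM2 had 5609, 6639, 4520 and 7790 reads in DMSO, PD0332991, scrambled siRNA and CDK4/6 KD, and ORM1 had 5803, 6501, 4433 and 7589, which put ORM2 at 0.967 to 1.03 times ORM1. HPR had 1843, 1718, 719 and 2496 reads, or 0.804 to 0.882 times those of HP. SAA2-SAA4 had 503, 693, 526 and 751 reads, or 0.974 to 0.996 times those of SAA4. How reads that match more than one gene were counted is not given in the sources used here, so the levels of ORM1 and ORM2, of HP and HPR, and of SAA4 and SAA2-SAA4 are not separate measurements of each gene. The last exon of IL6ST overlaps an antisense gene on the other strand, AC008914.1, and whether the counting used strand is not given either.

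**Figure D1:**
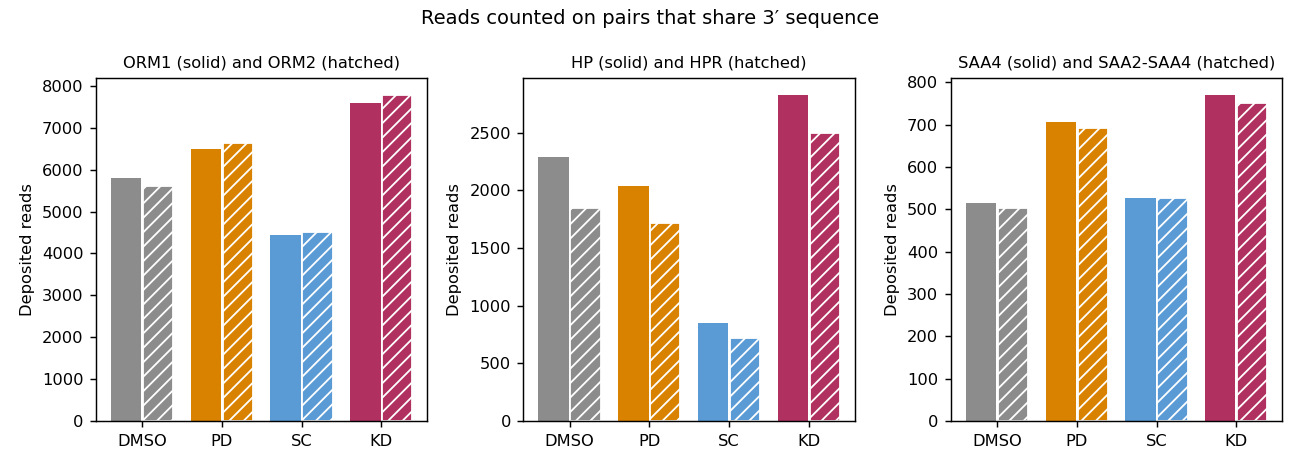
Deposited reads (y axis, linear from 0) of ORM1 with ORM2, HP with HPR and SAA4 with SAA2-SAA4 in the 4 libraries (x axis: DMSO; PD, PD0332991; SC, scrambled siRNA; KD, CDK4/6 KD), with the first gene solid and its partner hatched. Within each library the bars of a pair lie close, with ORM2 at 0.967 to 1.03 times ORM1, HPR at 0.804 to 0.882 times HP and SAA2-SAA4 at 0.974 to 0.996 times SAA4.

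The genes lie on 7 chromosomes, with the SAA and the ORM genes in clusters (GRCh38, GENCODE 29, whereas the submitters' processing notes name hg19 and the tables carry symbols only). HP spans chr16:72054592-72061055 on the plus strand, inside TXNL4B on the opposite strand. SAA4 (chr11:18231349-18236893) and SAA2 (chr11:18239223-18248643) are on the minus strand and SAA1 (chr11:18266174-18269977) on the plus strand. ORM1 (chr9:114323056-114326475) and ORM2 (chr9:114329869-114333252) follow each other on the plus strand, and LBP spans chr20:38346356-38377023, also on the plus strand. The receptor chains are on separate chromosomes, IL6R at chr1:154405193-154469450 on the plus strand and IL6ST at chr5:55935095-55994993 on the minus strand. SOCS3 spans chr17:78356778-78360077 on the minus strand.

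The promoters of IL6R and IL6ST differed in base composition from those of SAA4 and ORM1, the only secreted members for which a promoter was available. These 4 are shown as the 250 bases before the RefSeq start (GRCh38.p14, each in the direction of transcription). Each RefSeq start lies inside the GENCODE span given above. All 4 windows therefore run past the GENCODE start into the gene. The table of promoters held SAA4, ORM1, IL6R, IL6ST and SOCS3, 5 of the 10 members. Capitals mark matches, on either strand, to TTGNNNAA, a loose form of the C/EBP site, or to TATAAA.
SAA4, chr11:18236803-18237052, minus strand: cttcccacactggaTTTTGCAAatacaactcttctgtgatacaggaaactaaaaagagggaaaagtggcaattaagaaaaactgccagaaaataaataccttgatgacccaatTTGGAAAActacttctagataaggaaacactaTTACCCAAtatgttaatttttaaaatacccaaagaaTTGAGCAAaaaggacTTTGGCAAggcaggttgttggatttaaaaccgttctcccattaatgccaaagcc
ORM1, chr9:114322848-114323097, plus strand: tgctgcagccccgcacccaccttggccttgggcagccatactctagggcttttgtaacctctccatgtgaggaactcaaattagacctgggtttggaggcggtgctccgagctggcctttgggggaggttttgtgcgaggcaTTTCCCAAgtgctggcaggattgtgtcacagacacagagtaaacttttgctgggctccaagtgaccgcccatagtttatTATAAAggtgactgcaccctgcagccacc
IL6R, chr1:154405093-154405342, plus strand: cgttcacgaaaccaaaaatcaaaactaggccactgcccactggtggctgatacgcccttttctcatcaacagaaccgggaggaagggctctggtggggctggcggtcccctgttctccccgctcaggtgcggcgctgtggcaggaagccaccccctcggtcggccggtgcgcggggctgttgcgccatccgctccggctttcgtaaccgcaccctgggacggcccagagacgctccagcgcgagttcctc
IL6ST, chr5:55994964-55995213, minus strand: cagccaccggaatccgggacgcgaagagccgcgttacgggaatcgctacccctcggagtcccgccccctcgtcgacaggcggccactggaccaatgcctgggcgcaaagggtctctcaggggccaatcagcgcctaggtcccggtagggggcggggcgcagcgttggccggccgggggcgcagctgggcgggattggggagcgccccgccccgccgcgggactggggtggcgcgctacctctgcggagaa
SAA4 held 5 matches to the C/EBP letters, and ORM1 held 1 together with a TATAAA that starts 29 bases before the RefSeq start. Of the 35116 promoters in the table, 30.2% held TTGNNNAA and 10.7% held TATAAA, so the first is common. The GC share was 35.6% in SAA4 with 1 CG and 54.8% in ORM1 with 5 CG, against 65.2% with 22 CG in IL6R and 73.6% with 31 CG in IL6ST, and the medians over all promoters were 58.0% and 11 CG. The letters TTCNNNGAA of a STAT site (6.57% of all promoters) were, on either strand, in none of the windows of the 5 genes. Nor were GGG with TTTCC or TTCCC after any 2 bases for an NF-kappaB site (3.52%). TTTCCCGC or TTTGGCGC of an E2F site (1.93%) and GTTAAT with ATT after any base for an HNF1 site (0.296%) were absent too. The 2 SOCS3 windows were chr17:78360926-78361175 and chr17:78359668-78359917. The bases just before the SOCS3 start given above, 78360077 on the minus strand, lie in neither and were not searched.

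Of the 10 members, 7 had at least 10 reads in the libraries compared, and 3 were at or near 0. SAA1 had 0 reads in DMSO and in scrambled siRNA, 1 in PD0332991 and 2 in CDK4/6 KD. SAA2 had 1 read in PD0332991 and 0 in the other 3 libraries. LBP, which encodes the plasma protein that hands bacterial lipopolysaccharide to CD14, had 1 read in CDK4/6 KD and 0 elsewhere. A count of 0 allows up to 3 reads, or 0.265 to 0.329 CPM in these libraries, so a difference between conditions was not detectable at this depth and no fold change is given. CRP, the acute phase protein most used in the clinic, was at 1 read or fewer, APCS at 0, and IL6 itself was at 0 reads in all 4 libraries.

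Each level below comes from 1 library, so no difference has a replicate check and no p-value is given. The 95% intervals are exact intervals on the split of the reads and cover counting error only. HP stood at 251 CPM in DMSO, 223 in PD0332991, 79.4 in scrambled siRNA and 250 in CDK4/6 KD. The scrambled siRNA library was the low one, and DMSO and CDK4/6 KD did not differ beyond counting error, with a ratio of KD to DMSO of 0.996 (95% interval 0.943 to 1.05).

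ORM1, the gene of orosomucoid 1, a lipocalin that carries basic drugs in plasma, stood at 635 CPM in DMSO, 714 in PD0332991, 414 in scrambled siRNA and 670 in CDK4/6 KD. ORM2 stood at 614, 729, 422 and 688 CPM in the same order. Both were lowest in scrambled siRNA and highest in PD0332991, and every step in the order of their levels was beyond counting error, the smallest being 1.06-fold in each. Other processing with the control kept moved ratios of ORM1 by up to 1.11-fold and of ORM2 by up to 1.07-fold, more than these smallest steps. SAA4, whose product sits on high density lipoprotein, stood at 56.4 CPM in DMSO, 77.6 in PD0332991, 49.3 in scrambled siRNA and 68.1 in CDK4/6 KD. Its order was that of ORM1 and ORM2, and the step from scrambled siRNA to DMSO, 1.14-fold (1.01 to 1.29), came nearest to counting error.

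IL6R, the chain that binds IL6, stood at 46.3 CPM in DMSO, 70.1 in PD0332991, 75.7 in scrambled siRNA and 45.3 in CDK4/6 KD. The levels formed a high pair, scrambled siRNA and PD0332991, and a low pair, DMSO and CDK4/6 KD, and neither pair was separated by counting error. IL6ST stood at 135 CPM in DMSO, 138 in PD0332991, 34.6 in scrambled siRNA and 163 in CDK4/6 KD. DMSO and PD0332991 did not differ beyond counting error, CDK4/6 KD lay 1.18-fold (1.10 to 1.27) above PD0332991, and scrambled siRNA lay far below the other 3 libraries. SOCS3 had 35, 32, 17 and 52 reads in DMSO, PD0332991, scrambled siRNA and CDK4/6 KD, or 3.83, 3.51, 1.59 and 4.59 CPM. Scrambled siRNA was again the low library, and the other 3 were not separated by counting error.

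The 2 receptor chains thus went opposite ways in scrambled siRNA, where IL6R was highest and IL6ST lowest of the 4 libraries. HP, SAA4, ORM1, ORM2, IL6ST and SOCS3 were lowest there, which makes 6 of the 7 counted, while 26.5% of 13961 genes were lowest in that library. ORM1 and ORM2 enter this count and those below as 2 members, though their levels are not separate measurements. The pair was not merged in the counts, and each median of the 7 given below is the value of ORM1 or of ORM2.

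**Figure D2:**
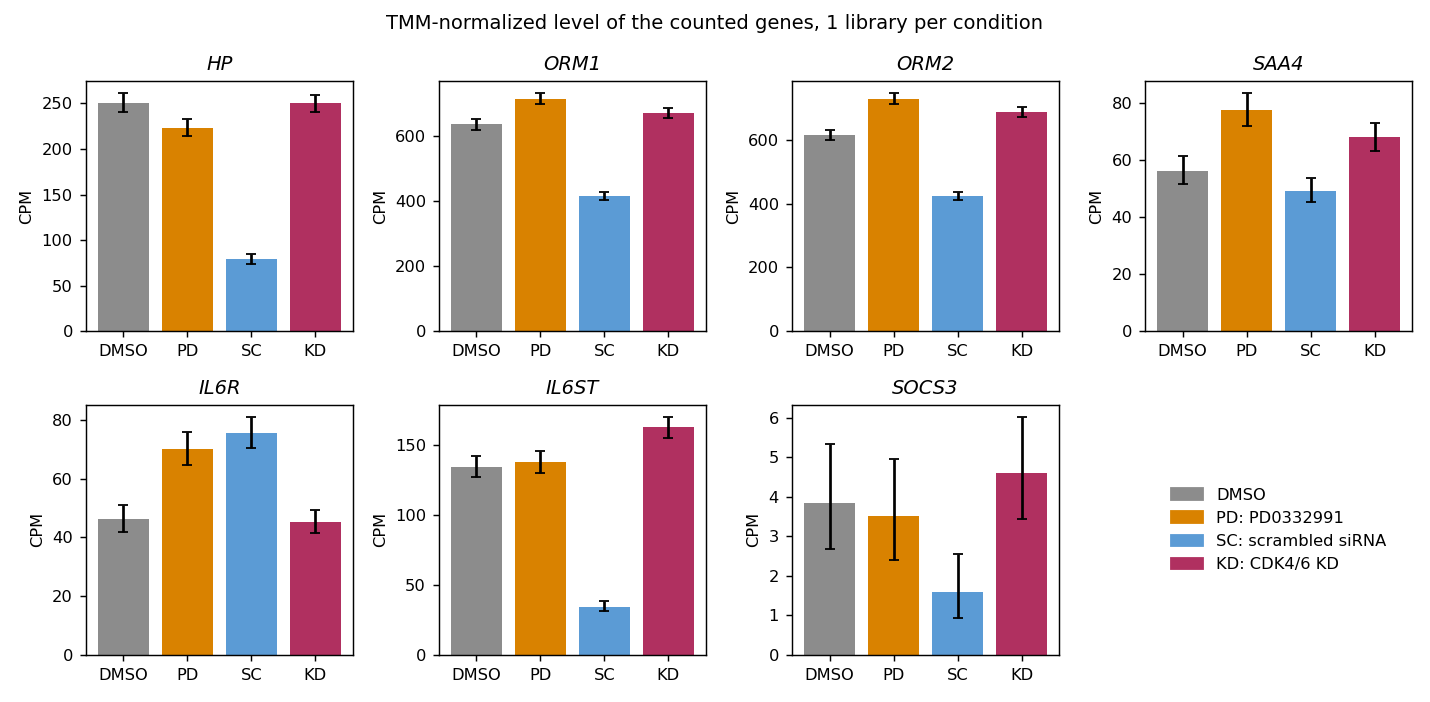
TMM-normalized CPM (y axis, linear from 0) of the 7 counted genes in the 4 libraries (x axis: DMSO; PD, PD0332991; SC, scrambled siRNA; KD, CDK4/6 KD), with bars for the level in 1 library and error bars for the exact 95% Poisson interval of its reads. Scrambled siRNA is the shortest bar in 6 panels, at 79.4 CPM for HP and 34.6 CPM for IL6ST, and the tallest for IL6R at 75.7 CPM.

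CDK4/6 KD was compared with scrambled siRNA, its transfection control, to ask how loss of CDK4 and CDK6 bears on these genes. IL6ST was 4.70-fold higher (4.21 to 5.28) in CDK4/6 KD, HP 3.15-fold higher (2.91 to 3.40) and SOCS3 2.83-fold higher (1.65 to 5.33). These 3 of the 7 counted members were at least 2-fold higher, beside 9.19% of the 13617 genes compared, and 0 were at least 2-fold lower, beside 7.62%. For IL6ST and HP the whole interval lay past 2-fold, beside 3.33% of all genes. The interval lay above 1 for 6 of the 7, beside 30.0% of all genes, and below 1 for 1, beside 31.9%.

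The other secreted proteins differed less. In CDK4/6 KD, ORM1 was 1.62-fold higher (1.56 to 1.68), ORM2 1.63-fold higher (1.57 to 1.69) and SAA4 1.38-fold higher (1.23 to 1.55). IL6R was the 1 counted member with a lower level in CDK4/6 KD, at a ratio of 0.599 (0.535 to 0.670). The median log2 fold change of the 7 was 0.70, against −0.00 over all genes compared.

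Against DMSO as the control, the differences of CDK4/6 KD were small. IL6ST was 1.21-fold higher (1.12 to 1.30), SAA4 1.21-fold (1.08 to 1.35), ORM2 1.12-fold (1.08 to 1.16) and ORM1 1.06-fold (1.02 to 1.09). Ratios of CDK4/6 KD to DMSO were taken with TMM factors only. HP, IL6R and SOCS3 were not separated from DMSO, with ratios of 0.996, 0.979 (0.859 to 1.12) and 1.20 (0.767 to 1.90). None of the 7 was 2-fold higher or lower, beside 8.04% and 8.16% of the 13512 genes compared. The interval lay above 1 for 4, beside 28.9% of all genes, and below 1 for 0, beside 30.5%. The CDK4/6 KD cells were transfected and the DMSO cells were given solvent, so in this pair the siRNAs and the handling cannot be told apart.

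**Figure D3:**
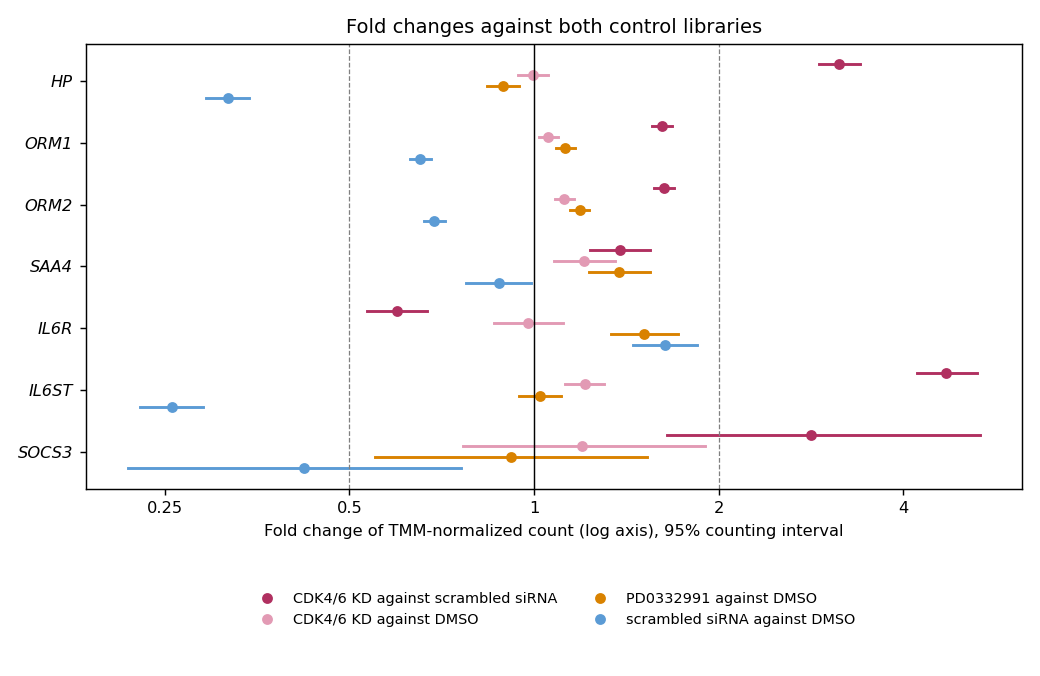
Fold change (x axis, log scale) of the 7 counted genes (y axis) in CDK4/6 KD against scrambled siRNA and against DMSO, PD0332991 against DMSO and scrambled siRNA against DMSO, with points for the ratio and lines for its 95% counting interval, and dashed lines at 2-fold either way. HP, IL6ST and SOCS3 lie past 2-fold for CDK4/6 KD against scrambled siRNA (3.15, 4.70 and 2.83) and near 1 for CDK4/6 KD against DMSO (0.996, 1.21 and 1.20).

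The control libraries were compared with each other to show how far cells with intact CDK4 and CDK6 differed. Relative to DMSO, scrambled siRNA had a ratio of 0.257 (0.228 to 0.289) for IL6ST, 0.317 (0.292 to 0.343) for HP and 0.422 (0.218 to 0.760) for SOCS3. These 3 of 7 were at least 2-fold lower, beside 6.64% of 13303 genes, and 0 were at least 2-fold higher, beside 5.3%. The interval lay below 1 for 6 of the 7, beside 28.0% of all genes, and above 1 for IL6R, beside 28.3%. ORM1 had a ratio of 0.652, ORM2 of 0.688 and SAA4 of 0.876, while IL6R was 1.63-fold higher (1.45 to 1.84). The median log2 fold change of the 7 was −0.62, against 0.01 over all genes. This comparison shares the scrambled siRNA library with the knockdown comparison, so the low level there enters both, and siRNA transfection, culture and library cannot be told apart as its source.

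PD0332991 was compared with DMSO to ask how inhibition of the kinases bears on the same genes. IL6R was 1.51-fold higher (1.34 to 1.72), SAA4 1.38-fold (1.23 to 1.55), ORM2 1.19-fold (1.15 to 1.23) and ORM1 1.12-fold (1.09 to 1.17). HP was lower, at a ratio of 0.890 (0.838 to 0.945), or 0.942 (0.887 to 1.00) with upper-quartile factors. IL6ST, at 1.02 (0.945 to 1.11), and SOCS3, at 0.919 (0.550 to 1.53), were not separated from DMSO by counting error.

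None of the 7 was at least 2-fold higher or lower after PD0332991, beside 7.49% and 7.07% of the 13443 genes compared. The interval lay above 1 for 4, beside 28.1% of all genes, and below 1 for HP, beside 28.6%. The median log2 fold change of the 7 was 0.17, against 0.02 over all genes. SAA4, ORM1 and ORM2 were higher in both the knockdown and the inhibitor comparisons. HP and IL6R went opposite ways in them, and the difference between the comparisons was not tested. Set against scrambled siRNA, the library that CDK4/6 KD was also set against, PD0332991 had HP at 2.81, IL6ST at 3.98 and SOCS3 at 2.18 times its level. These were 3 of 7 at least 2-fold higher, beside 10.7% of 13552 genes, and 0 were at least 2-fold lower, beside 8.17%.

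The route that carries the IL6 signal was described with lists of related genes, beside the shares of all genes given above. Of 9 ligands of the IL6 family, 4 passed the filter of 10 reads, of which 1 was 2-fold higher and 1 lower in the knockdown comparison and 0 and 1 after PD0332991, with median log2 fold changes of 0.10 and −0.84. CTF1 (cardiotrophin 1) had 15, 20, 11 and 78 reads in DMSO, PD0332991, scrambled siRNA and CDK4/6 KD, and CDK4/6 KD lay 6.44-fold (3.55 to 14.0) above scrambled siRNA. IL11 had 126, 77, 310 and 50 reads, with a ratio of 0.154 (0.111 to 0.206) for CDK4/6 KD against scrambled siRNA and of 0.615 (0.456 to 0.821) for PD0332991 against DMSO. IL11, which also signals through IL6ST, was thus highest in scrambled siRNA. LIF, another ligand of IL6ST complexes, had 32, 16, 20 and 36 reads and a ratio of 0.509 (0.257 to 0.942) for PD0332991 against DMSO.

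Of the 6 other receptors of the family, 5 passed the filter, with 1 higher and 1 lower in the knockdown comparison, 0 past 2-fold after PD0332991, and medians of 0.22 and 0.06. IL11RA had a ratio of 2.68 (1.77 to 4.25) for CDK4/6 KD against scrambled siRNA and of 2.00 (1.39 to 2.94), just under 2-fold before rounding, for PD0332991 against DMSO. LIFR, which pairs with IL6ST to bind LIF, was 1.41-fold higher (1.19 to 1.66) in CDK4/6 KD and 1.05-fold (0.879 to 1.24) in PD0332991. IL27RA, which pairs with IL6ST for IL27, had 58, 104, 129 and 59 reads in the 4 libraries, high in scrambled siRNA and PD0332991. It was 1.79-fold higher (1.29 to 2.53) in PD0332991 than in DMSO.

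The 10 JAK and STAT transducers were close to level, with 0 of 10 past 2-fold in either comparison and medians of −0.03 and 0.02 on the log2 scale. STAT3, the main carrier of the IL6 signal, stood at 110, 130, 98.5 and 160 CPM in DMSO, PD0332991, scrambled siRNA and CDK4/6 KD. It was 1.18-fold higher (1.09 to 1.29) in PD0332991 than in DMSO and CDK4/6 KD lay 1.63-fold (1.51 to 1.76) above scrambled siRNA. In CDK4/6 KD, STAT5B had a ratio of 0.747 (0.598 to 0.929) and STAT6, the carrier of the IL4 signal, of 0.777 (0.708 to 0.851). STAT6 was 1.44-fold higher (1.3 to 1.6) and STAT2, which acts in type I interferon signals, 1.49-fold higher (1.20 to 1.85) in PD0332991 than in DMSO, so STAT6 went opposite ways in the comparisons.

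Of 7 counted inhibitors of the route, 1 was 2-fold higher and 0 lower in the knockdown comparison, and 0 and 2 after PD0332991, with medians of −0.23 and −0.52. The 1 higher in CDK4/6 KD was CISH, at 2.31-fold (1.42 to 3.98). The 2 lower in PD0332991 than in DMSO were SOCS1 and SOCS2, relatives of SOCS3. SOCS1 had a ratio of 0.498 (0.329 to 0.736). SOCS2 had a ratio of 0.422 (0.166 to 0.928), with 9 reads in PD0332991 against 22 in DMSO. PIAS1, which restrains STAT proteins, was not past 2-fold, at 0.522 (0.420 to 0.643) for PD0332991 against DMSO. PIAS3, an inhibitor of STAT3, had a ratio of 0.612 (0.465 to 0.798) and PTPN2, a phosphatase of JAK and STAT proteins, of 0.772 (0.680 to 0.876) for CDK4/6 KD against scrambled siRNA. PTPN2 also had a ratio of 0.699 (0.603 to 0.809) for PD0332991 against DMSO.

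The 3 genes of receptor shedding had medians of −0.58 in the knockdown comparison, with 1 at least 2-fold lower, and of 0.01 after PD0332991, with 0 past 2-fold. ADAM17, the protease that cuts IL6R from the cell surface, had 258, 259, 448 and 211 reads in DMSO, PD0332991, scrambled siRNA and CDK4/6 KD. Its ratio was 0.446 (0.376 to 0.526) for CDK4/6 KD against scrambled siRNA and 1.01 (0.845 to 1.20) for PD0332991 against DMSO. RHBDF2 (iRhom2), which brings ADAM17 to the surface, had a ratio of 0.670 (0.577 to 0.777) in CDK4/6 KD and was 1.31-fold higher (1.12 to 1.54) in PD0332991. Both, like IL6R, were below the level of scrambled siRNA in CDK4/6 KD.

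Among STAT3 target genes, 3 of 11 lay at least 2-fold above scrambled siRNA in CDK4/6 KD and 2 at least 2-fold below it, and 0 of 12 passed 2-fold after PD0332991. The medians were −0.17 and 0.03. The 3 higher genes were FGL1, a hepatocyte secreted protein, at 2.78-fold (2.6 to 2.99), CEBPB at 2.04-fold (1.87 to 2.23) and IL1RN, the antagonist of the IL1 receptor, at 2.00-fold (1.72 to 2.34). MT2A, a metallothionein, had a ratio of 0.186 (0.181 to 0.192) in CDK4/6 KD and TIMP1, an inhibitor of metalloproteinases, of 0.353 (0.317 to 0.392). CEBPD, a C/EBP factor that inflammation induces, had a ratio of 0.572 (0.497 to 0.657). TIMP1 was highest in scrambled siRNA, at 121 CPM against 40.4 in DMSO, 57.3 in PD0332991 and 42.6 in CDK4/6 KD. In PD0332991 against DMSO, TIMP1 was 1.42-fold higher (1.24 to 1.63), the repressor BCL6 1.43-fold (1.22 to 1.70) and CEBPB, the C/EBP factor that takes part in the acute phase response, 1.29-fold (1.18 to 1.42). HAMP, the gene of the iron hormone hepcidin, was singled out after its values were seen. It had 655 reads in DMSO, 394 in PD0332991, 0 in scrambled siRNA and 1 in CDK4/6 KD, which makes it at least 256-fold higher in DMSO than in scrambled siRNA at a floor of 3 reads. HAMP was thus under the floor in both transfected libraries, whereas HP and IL6ST were low in scrambled siRNA and not in CDK4/6 KD.

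The IL1 and NF-kappaB route had 1 of 15 genes at least 2-fold higher and 0 lower in CDK4/6 KD, with a median of −0.06, and 3 of 16 higher and 0 lower in PD0332991, with a median of 0.24. TRAF6, an adaptor of the IL1 receptor, was 2.09-fold higher (1.45 to 3.06) and IRAK4, the kinase ahead of it, 1.80-fold higher (1.30 to 2.52) in PD0332991 than in DMSO. RELA, the activating subunit of NF-kappaB, was 1.38-fold higher (1.25 to 1.53). NFKB1, the other subunit, had a ratio of 0.633 (0.556 to 0.719) in CDK4/6 KD against scrambled siRNA, the kinase IRAK1 of 0.726 (0.681 to 0.774) and TNFAIP3, an inhibitor of the route, of 0.765 (0.678 to 0.862). IL1B had few reads, 11, 24, 6 and 15 in DMSO, PD0332991, scrambled siRNA and CDK4/6 KD, and TNF had at most 1. IL1B was the 1 gene called higher in CDK4/6 KD, at 2.25-fold with an interval of 0.866 to 7.43. The 3 called higher in PD0332991 were TRAF6, IL1B at 2.14-fold (1.03 to 4.95) and IL1A at 4.68-fold (1.20 to 51.2). IL1A had 11 reads in PD0332991 against 2 in DMSO.

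**Figure D4:**
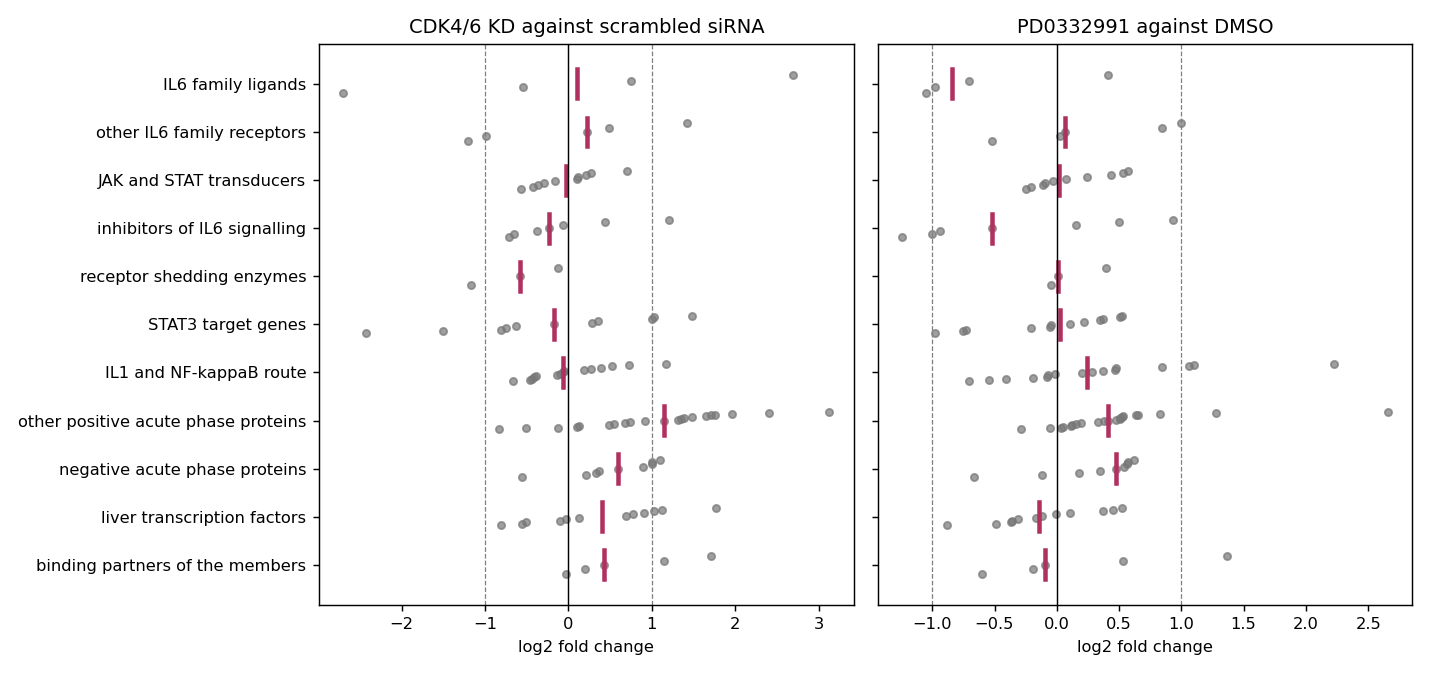
Log2 fold change (x axis) of the genes of each list past the filter (grey points) and the median of the list (red bar) for CDK4/6 KD against scrambled siRNA on the left and PD0332991 against DMSO on the right, each panel on its own scale, with dashed lines at 2-fold. The other positive acute phase proteins have medians of 1.14 on the left and 0.41 on the right, and the JAK and STAT transducers −0.03 and 0.02. The 1.14 is the value of CD14, with 10 reads in CDK4/6 KD against 4 in scrambled siRNA.

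The other positive acute phase proteins were mostly at a higher level in CDK4/6 KD. Of 21 past the filter, of 26 listed, 11 lay at least 2-fold above scrambled siRNA and 0 below it, with a median log2 fold change of 1.14. That median is the value of CD14, with 10 reads in CDK4/6 KD against 4 in scrambled siRNA. CD14 is also among the 11, at 2.20-fold, though its interval of 0.682 to 10.3 holds 1. The median was 0.88 with 5 added reads, 0.91 with a filter of 50 reads and 0.86 with quantile normalization. The interval lay above 1 for 16 of the 21, beside 30.0% of all genes, and below 1 for 3, beside 31.9%. These 3 were CP at a ratio of 0.560 (0.468 to 0.667), LRG1 at 0.702 (0.588 to 0.835) and AGT at 0.913 (0.891 to 0.936). HPX (hemopexin), which clears free haem, had 103, 106, 85 and 791 reads in DMSO, PD0332991, scrambled siRNA and CDK4/6 KD, and was 8.75-fold higher (7.03 to 11.1) in CDK4/6 KD. FGA and FGG, 2 of the 3 fibrinogen chains, were 3.38-fold (3.25 to 3.53) and 3.13-fold (3.0 to 3.27) higher. HPX, FGA and FGG were also higher in CDK4/6 KD than in DMSO, by 6.18-fold (5.04 to 7.69), 3.16-fold (3.03 to 3.30) and 2.01-fold (1.93 to 2.09), beside 0.996 for HP. With DMSO as the control, 8 of the 21 were at least 2-fold higher and 2 lower, and the median was 0.41. The 2 lower were CP at 0.471 (0.394 to 0.561) and CD14 at 0.417 (0.169 to 0.903). There the interval lay above 1 for 12, beside 28.9% of all genes, and below 1 for 5, beside 30.5%.

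After PD0332991, 2 of 21 were at least 2-fold higher and 0 lower, with a median of 0.41. ITIH3, an inhibitor heavy chain that binds hyaluronan, was 2.42-fold higher (1.99 to 2.97). ITIH4 had 2, 15, 8 and 29 reads in the 4 libraries, a ratio of 6.32 with an interval of 1.75 to 67.8. SERPINA3 (antichymotrypsin) stood at 572, 1014, 263 and 438 CPM, 1.77-fold higher (1.71 to 1.83) in PD0332991 than in DMSO. Scrambled siRNA held the lowest level of 14 of the 21, beside 26.5% of 13961 genes. Against DMSO, scrambled siRNA had 4 of 20 at least 2-fold lower and 0 higher, with a median of −0.30.

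**Figure D5:**
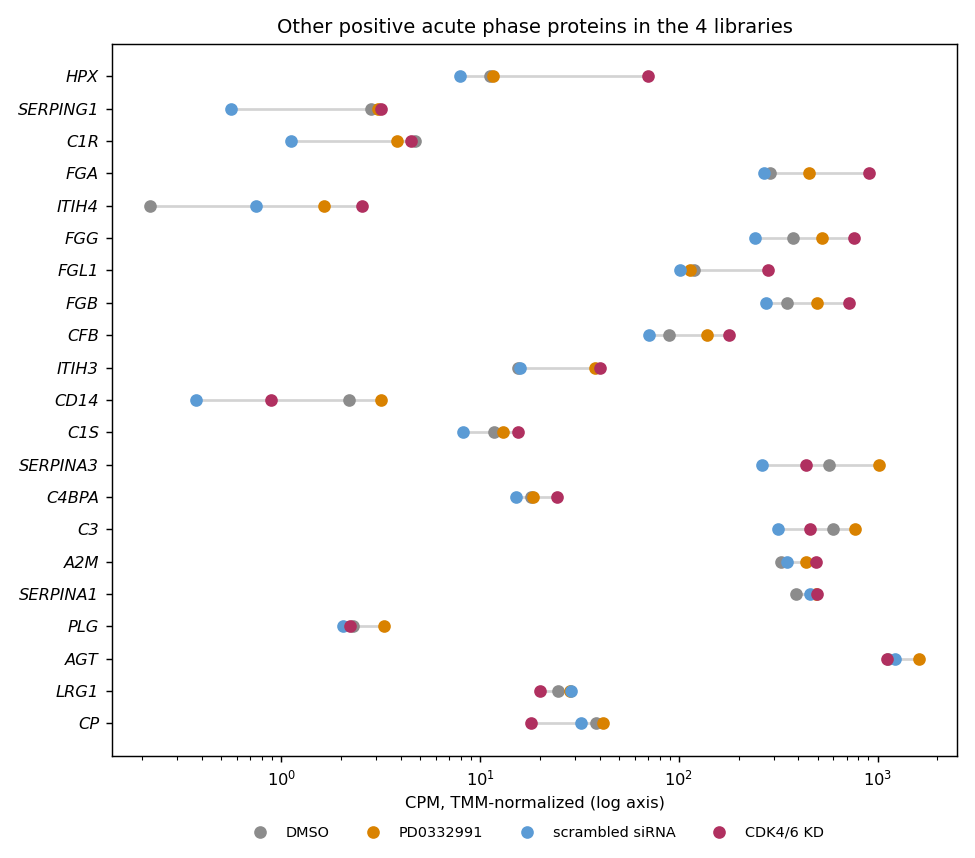
TMM-normalized CPM (x axis, log scale) of the 21 other positive acute phase proteins past the filter (y axis, ordered by the fold change of CDK4/6 KD against scrambled siRNA) in the 4 libraries, with 1 point per library and a grey line from the lowest to the highest. Scrambled siRNA is the lowest point for 14 of the 21, beside 26.5% of 13961 genes. CDK4/6 KD is the highest for 13, beside 24.7% of those genes. HPX is at 69.9 CPM in CDK4/6 KD and 7.94 to 11.6 CPM elsewhere.

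The negative acute phase proteins, whose plasma levels go down in inflammation, were mostly at a higher level in CDK4/6 KD too, with intervals above 1 for 8 of 9 against scrambled siRNA. Of these 9, CDK4/6 KD had 2 at least 2-fold above scrambled siRNA and 0 below it, with a median of 0.59, and 0 passed 2-fold after PD0332991, with a median of 0.47. With DMSO as the control for CDK4/6 KD, the interval lay above 1 for 9 of 9. There 1 was at least 2-fold higher and 0 lower, with a median of 0.63. ALB (albumin) was 2.01-fold higher (1.98 to 2.04), SERPINA7, which carries thyroxine, 2.14-fold (1.97 to 2.33) and TF (transferrin) 2.00-fold (1.94 to 2.05) in CDK4/6 KD. TF came out just under 2-fold before rounding and is not among the 2. APOA1, the main protein of high density lipoprotein, was 1.49-fold higher (1.46 to 1.51), TTR (transthyretin) 1.54-fold (1.44 to 1.65) and RBP4, the carrier of retinol, 1.48-fold (1.42 to 1.54) in PD0332991.

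Of 12 liver transcription factors that act on acute phase genes, CDK4/6 KD had 3 at least 2-fold above scrambled siRNA and 0 below it, with a median of 0.41. ONECUT1 had 60, 86, 23 and 84 reads in DMSO, PD0332991, scrambled siRNA and CDK4/6 KD, FOXA1 had 578, 313, 324 and 749, and CEBPB had 813, 1049, 718 and 1551. Their ratios for CDK4/6 KD were 3.40 (2.16 to 5.74), 2.18 (1.92 to 2.5) and 2.04 (1.87 to 2.23). With DMSO as the control, 0 of 12 were at least 2-fold higher and 1 was lower, with a median of −0.17. That 1 was CEBPA, the C/EBP factor of resting hepatocytes, at 160 CPM in DMSO, 129 in PD0332991, 39.1 in scrambled siRNA and 62.9 in CDK4/6 KD. In scrambled siRNA against DMSO, 4 of 12 were at least 2-fold lower and 0 higher, with a median of −0.56. After PD0332991, 0 of 12 passed 2-fold and the median was −0.14, with FOXA1 at a ratio of 0.544 (0.472 to 0.625), CEBPG at 0.778 (0.688 to 0.879) and CEBPA at 0.804 (0.744 to 0.868).

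Of 10 genes for proteins that bind the members or act with them, 5 passed the filter. In the knockdown comparison 2 were at least 2-fold higher and 0 lower, and after PD0332991 1 and 0. The medians were 0.43 and −0.10. The 2 were HPR and CD14, CD14 on 10 reads against 4 with an interval of 0.682 to 10.3. The 1 was LY96, on 11 reads against 4 in DMSO, at 2.58-fold (0.818 to 11.9). The 0.43 is also the value of LY96, with 13 reads in CDK4/6 KD against 9 in scrambled siRNA. HPR lay 3.28-fold (3.02 to 3.57) above scrambled siRNA in CDK4/6 KD and at a ratio of 0.935 (0.875 to 1.0) in PD0332991 against DMSO, with the sequence it shares with HP given above. SCARB1, a receptor for high density lipoprotein and serum amyloid A, was 1.15-fold higher (1.07 to 1.24) in CDK4/6 KD and had a ratio of 0.876 (0.808 to 0.95) in PD0332991. HMOX1, which breaks down the haem that haptoglobin and hemopexin deliver, had a ratio of 0.661 (0.595 to 0.735) in PD0332991. CD163, the haptoglobin receptor of macrophages, had at most 1 read.

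The genes whose pattern over the 4 libraries lay nearest to the members were found among 10673 genes that averaged 50 reads or more, by the root mean square distance of centred log2 CPM. Nearest to ORM2 were CA5A, a mitochondrial carbonic anhydrase, at 0.0196, DHRS3, a retinal reductase, at 0.0247, and the chemokine CCL15 at 0.0263. Nearest to ORM1 were PHF2 at 0.0226, the iron transporter SLC11A2 at 0.0231 and DHX40 at 0.0245. The same measure was then taken for other members, a choice made after their values were seen. IL6R lay nearest to ABCB1, the multidrug efflux pump, at 0.0218, with 85.9, 126, 140 and 81.5 CPM in DMSO, PD0332991, scrambled siRNA and CDK4/6 KD. IL6ST had no gene as close, KANK4 at 0.0926 and NR1H4, the bile acid receptor FXR, at 0.104 being the first. HP lay nearest to OSBPL7 at 0.0246 and XPR1 at 0.0445, followed by HPR at 0.0475. With 4 points per gene these are descriptions of the libraries.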

How the data were processed

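RNA from 4 HepG2 cultures was sequenced with a QuantSeq 3′ mRNA kit, 1 for each condition, and conditions were read from the sample labels. The files that the authors deposited hold counts of reads for each gene symbol, not normalized. The submitters' processing notes name Bowtie2, edgeR and hg19, and the counter, the annotation and the treatment of strand and of reads with several matches are not given in the sources used here. Each table has 25737 entries, and counts of 286 repeated symbols, none of them a member, were summed to 24462 genes.

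Library sizes (8983848 to 11176880 reads) were scaled with TMM factors of 0.957 to 1.03 (edgeR 4.0.16, R 4.3.3). Each count was raised by 0.5 reads, in proportion to library size, before ratios were taken, and a gene entered a comparison with 10 reads or more in one of its libraries. The interval of each ratio (95%, Clopper-Pearson, on how the reads split, scipy 1.17.1) covers counting error only. No molecular identifiers are named, so repeated reads of 1 molecule could not be told apart and the interval may be too narrow. A call was a change of at least 2-fold, and no ratio is printed for a gene with 3 reads or fewer in both libraries. With 1 library per condition, no test could be run. The calculation was tested on simulated data.

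The genes named were all members, CDK4 and CDK6, up to 3 genes per list and comparison whose interval ended furthest from 1 in the direction of the list median, and the 3 genes nearest in pattern to ORM1 and ORM2. HAMP, CD14, FGL1, IL1RN, CRP, APCS, IL6, IL1A, IL1B, TNF, CD163, CISH, SOCS2, LY96, CP, LRG1 and AGT were picked with their values in view. So were the neighbours in pattern of HP, IL6R and IL6ST. A named gene may be given in other comparisons too. 1 gene that the rule names is not reported here. CEBPB, CEBPD, FGL1, LCN2 and CD14 stand in more than one list. The members and lists were chosen with earlier results of these data known. The alternatives were DESeq2 1.42.0 size factors, total counts, upper-quartile factors, quantile normalization (limma 3.58.1), 5 added reads, a threshold of 1.5-fold, a filter of 50 reads or none, the other arm's control, ORM1 and ORM2 summed, and, for repeated symbols, only the entry with most reads. Gene positions and coding ends came from GENCODE 29 on GRCh38, promoters from RefSeq on GRCh38.p14.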

Additional observations from a re-analysis of the deposited data

Results flagged for a closer look

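HP and IL6R each had a difference in one direction in the knockdown arm and in the other direction in the inhibitor arm, with counting intervals on opposite sides of 1 except for HP in PD0332991 with upper-quartile factors, at 0.942 (0.887 to 1.00). HP lay 3.15-fold above scrambled siRNA in CDK4/6 KD and had a ratio of 0.890 in PD0332991 against DMSO. IL6R had a ratio of 0.599 in CDK4/6 KD against scrambled siRNA and was 1.51-fold higher in PD0332991 than in DMSO. With 1 library per condition, the difference between the arms was not tested. Both arms set against DMSO gave HP ratios of 0.996 and 0.890, and IL6R ratios of 0.979 and 1.51.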

How the results depend on the processing

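The choice of control library moved the results of the members most. With DMSO in place of scrambled siRNA, the members at least 2-fold higher in CDK4/6 KD went from 3 to 0, and HP turned to 0.996. With scrambled siRNA in place of DMSO, the members at least 2-fold higher in PD0332991 went from 0 to 3, HP turned to 2.81 and IL6R to 0.926. All 14 member fold changes moved or turned under this setting, by its own construction, since another library was set below. A threshold of 1.5-fold gave 5 members higher and 1 lower in CDK4/6 KD, 1 higher and 0 lower in PD0332991, and 1 higher and 4 lower in scrambled siRNA against DMSO. With upper-quartile factors the interval of HP in PD0332991 reached 1, at 0.942 (0.887 to 1.00), and that of IL6ST lay just above it, at 1.08 (1.00 to 1.17). With no filter, members with 3 reads or fewer in both libraries were still not called. Under the other settings no member turned, and no member fold change moved by more than 1.16-fold, SOCS3 with 17 reads in scrambled siRNA being the one that moved most. Total counts in place of TMM moved the median of all genes in CDK4/6 KD against scrambled siRNA from −0.00 to 0.10 on the log2 scale. Over all genes, the counts of genes at least 2-fold higher and lower depended on the filter, at 1252 and 1037 for CDK4/6 KD, 2996 and 2060 with no filter and 632 and 676 with a filter of 50 reads. For PD0332991 they were 1007 and 950, 2814 and 2037, and 406 and 675, and for scrambled siRNA against DMSO 705 and 883, 1909 and 2372, and 311 and 465. Of 22 list medians taken with the other control, 11 changed sign, among them the liver transcription factors in CDK4/6 KD, from 0.41 to −0.17, and in PD0332991, from −0.14 to 0.38, and the other IL6 family receptors in CDK4/6 KD, from 0.22 to −0.28. Of 264 under the other settings, 10 changed sign, and the widest was that of the IL6 family ligands in scrambled siRNA against DMSO, from −0.20 to 1.07 with a filter of 50 reads. No replicate could be left out with 1 library per condition. No paired analysis was possible because each condition has 1 library. Depth limits SOCS3 most among the counted members, and SAA1, SAA2 and LBP could not be compared.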
